A study of Mus musculus with 14 samples.

Results

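The Zbtb genes of the mouse, 41 symbols of the 19959 in the deposited tables, were followed through CD8+ T cells from E.G7 tumors. They were chosen by name alone, as every gene symbol made of Zbtb and a digit, and 38 of them were listed in the tables of all 3 experiments. A gene was tested in an experiment if its FPKM, a fragment count adjusted for gene length and sequencing depth, averaged 1 or more over the libraries. That left 29 of 39 listed members among tumor-infiltrating lymphocytes (TILs), 28 of 40 in the Prdm1 experiment and 28 of 39 in the Bcl6 experiment, with 27 tested in all 3. Of the members tested in at least 1 experiment, 15 passed the test in at least 1 of 5 comparisons and 14 in none. The share of all genes that did so was not computed. Single comparisons called from 1.36% to 48.8% of all genes tested. The name rule also took in Zbtb8os, which is named for its place beside Zbtb8a on the opposite strand and is not itself a BTB zinc finger gene.

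BTB zinc finger proteins carry a BTB domain at one end, which pairs protein molecules and recruits corepressors such as BCOR and histone deacetylases, and zinc fingers at the other, which bind DNA. Most act as transcriptional repressors. Bcl6 belongs to this family, and several relatives set lymphocyte fate: ThPOK (Zbtb7b) directs thymocytes to the CD4 lineage, PLZF (Zbtb16) directs innate-like T cells, and Zbtb32 restrains the expansion of activated lymphocytes. Others bind methylated DNA, telomeres or centromeric repeats.

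RNA had been sequenced in 14 libraries, 2 for each of 7 groups. In the TIL experiment, CD8+ cells of Bcl6-RFP mice were sorted from subcutaneous E.G7 tumors, an ovalbumin-expressing lymphoma, 21 days after inoculation, into populations labelled Bcl6+, DN (not spelled out in the labels) and TIM-3+. In the other experiments, OT-I cells, whose transgenic receptor recognises ovalbumin, were transferred, and about day 8 the control cells and the Prdm1-overexpressing or Bcl6-overexpressing cells that had been transferred with them were sorted from E.G7 tumors. The labels call the controls Prdm1neg and Bcl6neg and do not state the vector, the genotype of the hosts or the age of any animal. All 3 TIL populations carry the reporter allele, and all OT-I groups carry the transgenic receptor. The labels do not tie replicates to different animals, and p-values therefore cover the variation between these libraries alone. Levels are CPM (counts scaled by TMM to a library of 1e+06) in library 1 and library 2 of a group, changes are log2 fold changes with standard error (SE), and every adjusted p is from edgeR's quasi-likelihood test with adjustment over all genes tested, unless another tool is named. The experiments were aligned and normalized separately, so groups were tested only within an experiment.

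Across the libraries, total counts ran from 18309162 to 22322079. Bcl6 measured 416 ± 15 CPM in Bcl6+, 92.2 ± 2.9 in DN and 16.4 ± 2.4 in TIM-3+ TILs, and 80.3 ± 19 CPM in Bcl6-overexpressing against 3.95 ± 0.19 in control cells (SD, n = 2). Prdm1 measured 174 ± 26 CPM in Prdm1-overexpressing against 99.2 ± 14 in control cells, a difference that did not pass the test (log2 fold change 0.81, SE 0.19, adjusted p = 0.092). Of the CD8 T cell markers Cd3e, Cd3d, Cd8a, Cd8b1 and Trac, 4 were listed and were present in every library. All 4 were called lower in Bcl6+ than in TIM-3+ TILs, with a summed CPM of 3576 and 3673 in Bcl6+, 4118 and 4122 in DN and 6316 and 6103 in TIM-3+ cells. Under Bcl6 overexpression 2 of the 4 were called higher, among them Cd3d by 4.62-fold (log2 fold change 2.21, SE 0.19, adjusted p = 4e-09), and under Prdm1 overexpression 0 of 4, with 0 at an unadjusted p under 0.05 and 0 by DESeq2. Markers of other cells moved with the groups. The summed CPM of 6 macrophage and monocyte markers was 253 and 218 in Bcl6+, 135 and 134 in DN and 57.5 and 40.9 in TIM-3+ TILs. It was 439 and 382 in Prdm1 control and 250.2 and 136 in Prdm1-overexpressing cells, and 128 and 126 in Bcl6 control and 589 and 510.1 in Bcl6-overexpressing cells, with none of the 6 at 0 in any library. Their part in the results below was not tested. In bulk RNA, fewer cells of a type and less RNA per cell cannot be told apart.

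The Zbtb genes ranged from 0 to 269 FPKM, and Zbtb32 stood above the rest. It ranked first in each experiment, with a mean of 62.7 FPKM over the TIL libraries, 178 over those of the Prdm1 experiment and 257 over those of the Bcl6 experiment. Zbtb38 came next in the TIL and Prdm1 experiments, at 24.3 and 38.5 FPKM. In the Bcl6 experiment it averaged 15.3 FPKM over control and overexpressing cells, beside 15.6 for Zbtb17, and those means differed by less than the spread over the libraries. Zbtb32 made up 13.7% and 13.1% of the summed FPKM of all Zbtb genes in the Bcl6+ libraries, 21.1% and 21.2% in DN and 41.2% and 40.7% in TIM-3+. In the OT-I libraries its share lay between 42.4% and 65.1%. Zbtb genes together held 0.0679% to 0.174% of all FPKM in a library.

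Close to the threshold, Zbtb3 was just inside it among TILs at 1 FPKM and Zbtb34 just outside at 0.674. In the Prdm1 experiment Zbtb6 lay inside at 1.20 and Zbtb3 outside at 0.756 FPKM, and in the Bcl6 experiment Zbtb3 lay inside at 1.14 and Zbtb46 outside at 0.913 FPKM. The 12 members under the threshold in every table that listed them were Zbtb7c, Zbtb8b, Zbtb9, Zbtb10, Zbtb12, Zbtb16, Zbtb18, Zbtb26, Zbtb33, Zbtb34, Zbtb37 and Zbtb39. Zbtb7c and Zbtb9 were listed in the Prdm1 table only, and Zbtb12 in the other 2 tables.

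**Figure D1:**
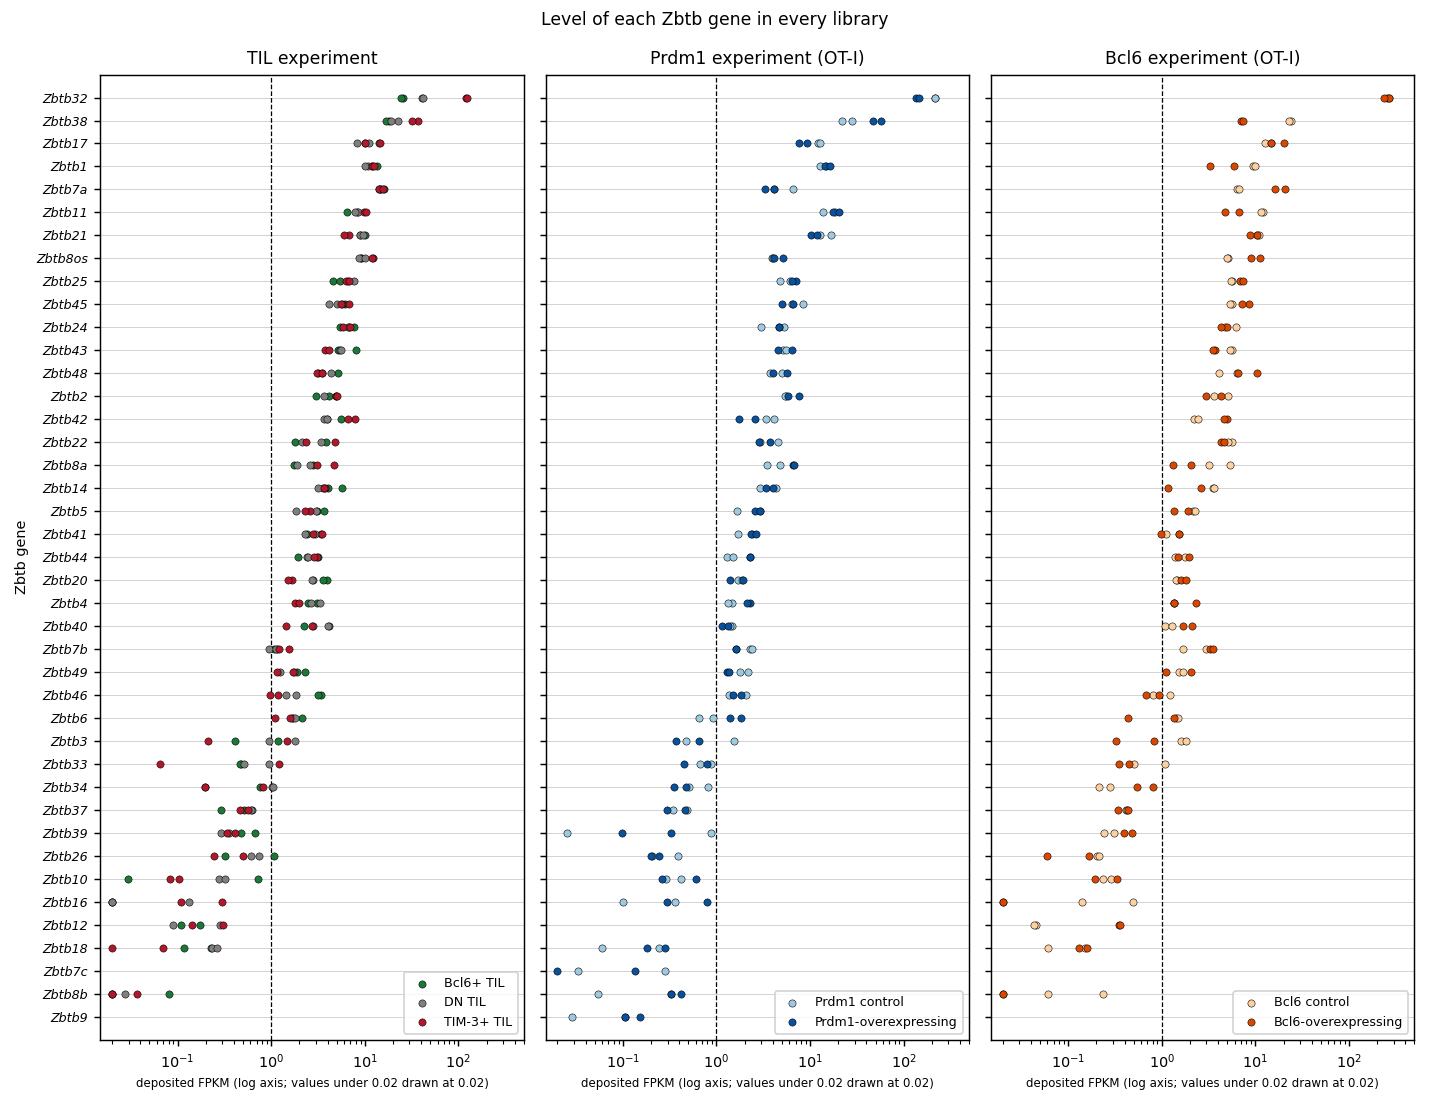
Deposited FPKM (log axis) of each of the 41 Zbtb genes, one point per library, in the TIL, Prdm1 and Bcl6 experiments, with genes ordered by their mean; the dashed line marks 1 FPKM. Zbtb32 is the highest gene in all 3 panels, and its TIM-3+ points stand to the right of its Bcl6+ and DN points.

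Promoter sequences of Zbtb38, Zbtb32 and Zbtb7a are shown because Zbtb32 had the largest called change in TILs, Zbtb38 and Zbtb7a had the 2 smallest adjusted p-values under Bcl6 overexpression, and Zbtb38 encodes a protein that binds methylated CpG. Each is the reference sequence of RefSeq (GRCm38.p6), 250 bases before to 50 bases after an annotated start, 5′ to 3′ on the gene's strand, with CG dinucleotides in capitals.
Zbtb38, chr9:96719801-96720100, minus strand: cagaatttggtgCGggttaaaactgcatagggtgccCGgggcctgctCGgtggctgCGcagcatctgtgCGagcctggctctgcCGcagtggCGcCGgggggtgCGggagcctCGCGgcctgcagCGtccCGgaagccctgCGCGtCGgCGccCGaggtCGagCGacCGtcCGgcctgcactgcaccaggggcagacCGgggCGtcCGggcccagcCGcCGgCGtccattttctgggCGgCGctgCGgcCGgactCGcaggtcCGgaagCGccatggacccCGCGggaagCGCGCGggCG
Zbtb32, chr7:30598860-30599159, minus strand: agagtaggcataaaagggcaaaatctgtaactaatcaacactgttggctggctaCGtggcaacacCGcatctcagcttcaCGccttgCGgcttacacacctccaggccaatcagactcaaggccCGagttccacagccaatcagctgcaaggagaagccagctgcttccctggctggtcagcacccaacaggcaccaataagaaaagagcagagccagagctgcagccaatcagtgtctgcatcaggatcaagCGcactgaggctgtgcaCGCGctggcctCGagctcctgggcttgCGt
Zbtb7a, chr10:81136021-81136320, plus strand: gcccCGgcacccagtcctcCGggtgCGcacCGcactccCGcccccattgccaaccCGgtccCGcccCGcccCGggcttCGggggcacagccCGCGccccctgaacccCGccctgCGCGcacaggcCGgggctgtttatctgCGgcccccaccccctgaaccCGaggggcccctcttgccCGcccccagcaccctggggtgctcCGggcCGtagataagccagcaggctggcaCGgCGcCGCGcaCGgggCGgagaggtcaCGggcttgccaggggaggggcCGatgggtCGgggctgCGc
These windows hold 41 CG dinucleotides for Zbtb38, 10 for Zbtb32 and 31 for Zbtb7a. Zbtb38 has other annotated starts, with 8 and 25 CG dinucleotides in their windows, and the second start of Zbtb32 has 3. For other members that differed among the 3 TIL populations, the windows held 3 (Zbtb20), 1 (Zbtb46), 33 (Zbtb21), 40 (Zbtb42) and 29 (Zbtb43). The listed starts of Zbtb20 and Zbtb46 lie inside the annotated genes, away from where the genes begin. Of the 41 Zbtb genes 36 were found among the RefSeq promoters, with 49 windows, and 61.2% of these windows had at least 20 CG dinucleotides, against 26.5% of the 32851 windows of all genes. Taking the most CG-rich window of each gene, the shares were 69.4% of 36 Zbtb genes and 28.8% of 27025 genes. All genes here means every gene with a RefSeq promoter, listed in this series or not. The comparison is matched neither for expression nor for gene type. A Bcl6-like motif, TTCCTNGAA, and a Blimp-1-like motif, GTGAAAG, were searched on both strands. They were found in 0 of the 49 Zbtb windows, and in 1.59% and 4.24% of all windows. That says only that these letters are not in these windows.

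Among the 3 TIL populations, the Zbtb genes that differed most were Zbtb32 and Zbtb38, highest in TIM-3+ cells, and Zbtb20 and Zbtb46, highest in Bcl6+ cells. A test of any difference among the 3 populations called 7 of 29 members, against 39.6% of all genes tested. Between Bcl6+ and TIM-3+ cells 7 of 29 members were called (24.1%), 4 higher and 3 lower in Bcl6+ cells, against 38.6% of all 9748 genes, 19.1% higher and 19.6% lower. Between Bcl6+ and DN cells 3 of 29 were called (10.3%), 2 higher and 1 lower, against 14.2% of all genes, 6.49% higher and 7.69% lower. Between TIM-3+ and DN cells 6 of 29 were called (20.7%), 3 higher and 3 lower, against 28.2% of all genes, 14.9% higher and 13.2% lower. Called differences of at least 2-fold numbered 3 members between Bcl6+ and TIM-3+ cells (15.5% of all genes), 1 between Bcl6+ and DN cells (3.72%) and 1 between TIM-3+ and DN cells (9.86%). The libraries of the 2 populations did not overlap for 19 of 29 members between Bcl6+ and TIM-3+ cells (68.8% of all genes), for 12 between Bcl6+ and DN cells (54.4%) and for 20 between TIM-3+ and DN cells (65%). In each comparison the share of members called lay below the share of all genes. These 3 comparisons share libraries, so they do not support one another. The median log2 fold change of the members was 0.02 between Bcl6+ and TIM-3+ cells (all genes 0.01), 0.11 between Bcl6+ and DN cells (all genes 0.00) and 0.11 between TIM-3+ and DN cells (all genes -0.01). Scaling by library totals alone, without TMM, moved the median of all genes to 0.19 between Bcl6+ and TIM-3+ cells and to -0.18 between TIM-3+ and DN cells. With that scaling 9 members were higher and 2 lower in Bcl6+ than in TIM-3+ cells, and 3 higher and 6 lower in TIM-3+ than in DN cells. The same scaling called 2896 genes higher and 1283 lower in Bcl6+ than in TIM-3+ cells (1857 and 1907 with TMM), and 869 higher and 2173 lower in TIM-3+ than in DN cells (1454 and 1291 with TMM). With the gene length trend removed, 1 member was higher and 1 lower in Bcl6+ than in DN cells.

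**Figure D2:**
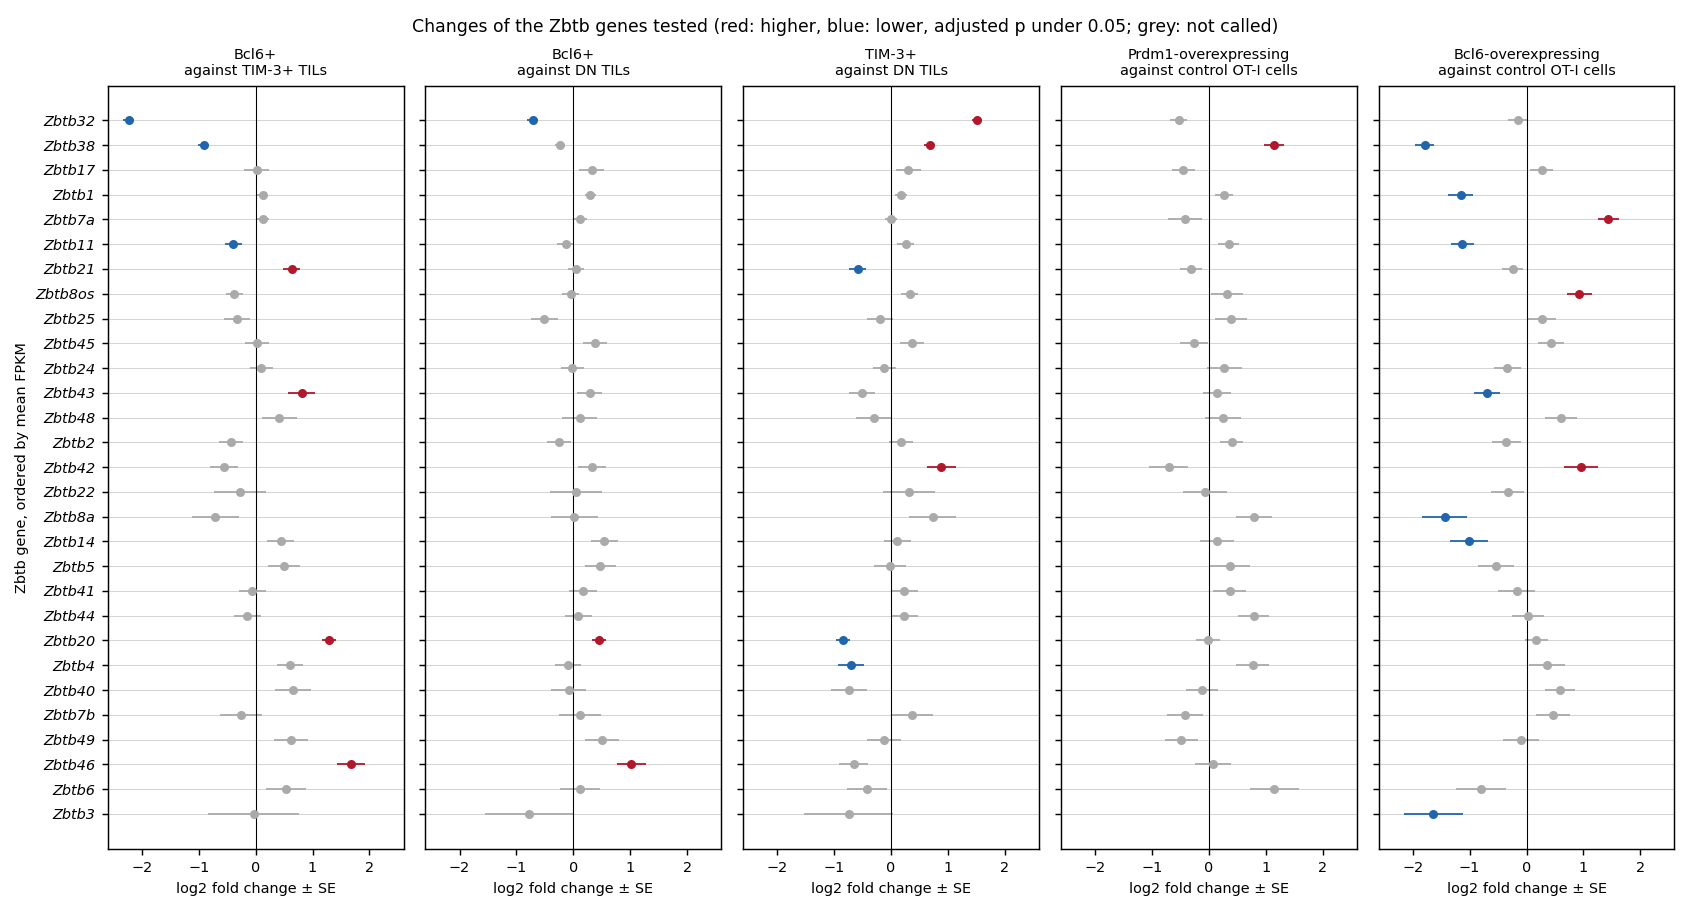
Log2 fold change with SE of each Zbtb gene tested, in the 5 comparisons, from edgeR on the counts; red points are higher and blue points lower at an adjusted p under 0.05, and grey points were not called. Zbtb32 lies at -2.23 in the first panel and Zbtb38 at 1.15 and -1.79 in the panels for Prdm1 and Bcl6 overexpression.

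Zbtb32 (ENSMUSG00000006310, chromosome 7, 30589681 to 30598909, minus strand in mm10; PLZP or ROG, a repressor induced on activation that limits proliferation and cytokine production in T cells) rose stepwise from Bcl6+ to DN to TIM-3+ TILs. Its level was 64.6 and 60.4 CPM in the Bcl6+ libraries, 102 and 104 in DN and 289.8 and 295 in TIM-3+. No 2 populations overlapped. TIM-3+ cells held 4.68 times the level of Bcl6+ cells (log2 fold change -2.23, SE 0.094, adjusted p = 4.5e-10), and DN cells 1.65 times (-0.72, SE 0.092, adjusted p = 1e-04). The step from DN to TIM-3+ cells was 2.84-fold (1.51, SE 0.091, adjusted p = 4.2e-08). These calls passed under every alternative that was run. Prdm1 had the same order among these populations, at 28.9 ± 2.8 CPM in Bcl6+, 110.0 ± 12 in DN and 355 ± 7 in TIM-3+ cells (SD, n = 2), and Bcl6 the reverse. In the Prdm1 experiment Zbtb32 was 515 and 505 CPM in control and 349.5 and 359 CPM in overexpressing cells. Those groups did not overlap, but the difference did not pass the test over all genes (log2 fold change -0.53, SE 0.15, adjusted p = 0.13). With a replicate block in edgeR's fit Zbtb32 was called lower (adjusted p = 0.0052), though replicate numbers are not stated to pair the samples. In the Bcl6 experiment it was 644 and 679.8 CPM in control and 632 and 557 CPM in Bcl6-overexpressing cells, whose ranges did not overlap either (-0.15, SE 0.17, adjusted p = 0.46, not called).

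Zbtb20 (ENSMUSG00000022708, chromosome 16, 42875881 to 43642602, plus strand; a repressor with reported roles in B cell, plasma cell and memory CD8 T cell biology) took the opposite order to Zbtb32. It measured 130.1 and 116 CPM in Bcl6+, 91.8 and 87.8 in DN and 52.7 and 47.6 in TIM-3+ TILs, again with no overlap. Bcl6+ cells held 2.45 times the level of TIM-3+ cells (log2 fold change 1.29, SE 0.12, adjusted p = 1.6e-06), and TIM-3+ cells held less than DN cells (-0.84, SE 0.12, adjusted p = 0.00015). The difference between Bcl6+ and DN cells was 1.37-fold (0.45, SE 0.12, adjusted p = 0.022). That call was lost without library 1 of Bcl6+ (adjusted p = 0.12) or without library 1 or 2 of DN (adjusted p = 0.11 and 0.17), and with the gene length trend removed (adjusted p = 0.052) or limma-trend on FPKM (adjusted p = 0.28 and 0.33 with pseudocounts of 1 and 0.1). It was not called in either overexpression experiment. OT-I control and overexpressing cells lay between 46.9 and 60.8 CPM, with log2 fold changes of -0.02 (SE 0.21) for Prdm1 and 0.17 (SE 0.2) for Bcl6.

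Zbtb46 (ENSMUSG00000027583, chromosome 2, 181387762 to 181459426, minus strand; best known as a marker and repressor of classical dendritic cells) was 30.9 and 28.4 CPM in Bcl6+, 12.9 and 16.4 in DN and 8.40 and 10.1 in TIM-3+ TILs. The Bcl6+ libraries stood above the other 4. The difference was 3.20-fold against TIM-3+ (log2 fold change 1.68, SE 0.25, adjusted p = 0.00013) and 2.02-fold against DN (1.02, SE 0.25, adjusted p = 0.013). The second call was lost without library 1 of Bcl6+ (adjusted p = 0.066), library 1 of DN (adjusted p = 0.15) or library 2 of DN (adjusted p = 0.051), and with limma-trend at a pseudocount of 0.1 (adjusted p = 0.064). Dendritic cell markers did not share this order as a sum. Their summed CPM over 6 genes was 23.7 and 44.4 in Bcl6+, 77.0 and 65.1 in DN and 61.0 and 55.0 in TIM-3+ cells. Of the 3 tested, Xcr1, a receptor of cross-presenting dendritic cells, was lower in Bcl6+ than in TIM-3+ cells (-2.23, SE 0.25, adjusted p = 7.5e-06), while Siglech (1.40, SE 0.77, adjusted p = 0.17) and Itgax (0.47, SE 0.37, adjusted p = 0.34) had positive differences that were not called. Against DN cells, Xcr1 (-1.22, SE 0.25, adjusted p = 0.0035) and Siglech (-2.52, SE 0.72, adjusted p = 0.032) were lower in Bcl6+ cells and Itgax was not called (-0.29, SE 0.36, adjusted p = 0.69). Clec9a, which marks cross-presenting dendritic cells, was at 0 in Bcl6+ library 2 and in TIM-3+ library 2. The summed macrophage markers given above did share it, and the part of both lists in the difference was not tested. In the Prdm1 experiment Zbtb46 was 11.6 and 17.4 CPM in control and 14.3 and 16.1 CPM in overexpressing cells, which overlapped. In the Bcl6 experiment it lay under the FPKM threshold, at a mean of 9.22 CPM in control and 6.92 CPM in overexpressing cells. The fit with no FPKM filter did not call that difference (log2 fold change -0.31, SE 0.35, adjusted p = 0.5 by edgeR).

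Zbtb7a (ENSMUSG00000035011, chromosome 10, 81135220 to 81152995, plus strand; LRF, a repressor with roles in B and T lineage choice, germinal centre B cells and globin switching) had the largest rise under Bcl6 overexpression among the 28 members past the FPKM threshold. It measured 45.6 and 48.4 CPM in control and 144 and 112 CPM in Bcl6-overexpressing cells, a 2.72-fold difference (log2 fold change 1.44, SE 0.19, adjusted p = 3.4e-06). It was not called among TILs, at 108 and 115 CPM in Bcl6+, 104 and 101 in DN and 97.3 and 108 in TIM-3+ cells. Scaled by library totals it was called higher in Bcl6+ than in TIM-3+ cells (adjusted p = 0.037). In the Prdm1 experiment it was 45.2 and 28.1 CPM in control and 31.3 and 23.4 CPM in overexpressing cells, which overlapped (-0.42, SE 0.3, adjusted p = 0.5). The macrophage and monocyte markers were all called higher in the Bcl6-overexpressing libraries, and their part in the rise of Zbtb7a was not tested.

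Zbtb1 (ENSMUSG00000033454, chromosome 12, 76370266 to 76396950, plus strand; required for lymphoid development) fell with Bcl6 overexpression, from 123 and 129.7 CPM in control to 40.3 and 73.1 CPM (log2 fold change -1.16, SE 0.22, adjusted p = 0.00026). The 2 overexpressing libraries differed from each other but both lay below the controls. It did not pass the test between any TIL populations, at 177 and 153 CPM in Bcl6+, 138 and 130.1 in DN and 148 and 154 in TIM-3+ cells. Between Bcl6+ and DN cells it came near the threshold (0.30, SE 0.099, adjusted p = 0.061) and passed with DESeq2 (adjusted p = 0.033). Zbtb25, a repressor of NFAT targets, lies head to head with Zbtb1 on chromosome 12, with 663 bases between the annotated genes. It was 18.6 and 18.4 CPM in Bcl6 control and 21.5 and 23.1 CPM in Bcl6-overexpressing cells and was not called there (0.27, SE 0.25, adjusted p = 0.39), nor in any other comparison.

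Zbtb17 and Zbtb7b were not called in any comparison. Zbtb17, which encodes Miz-1, a partner of both Myc and Bcl6, was 58.1 and 41.0 CPM in Bcl6+, 33.6 and 45.6 in DN and 39.8 and 58.1 in TIM-3+ TILs, and 52.3 and 61.2 CPM in Bcl6 control against 79.2 and 57.7 in overexpressing cells. Zbtb7b, the CD4-lineage factor ThPOK, was low, at 1.18 FPKM on average over the TIL libraries, 1.97 over those of the Prdm1 experiment and 2.88 over those of the Bcl6 experiment. Zbtb16, the innate-like factor PLZF, lay under the threshold in every table, at a mean of 0.0930, 0.386 and 0.162 FPKM in the TIL, Prdm1 and Bcl6 experiments.

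**Figure D3:**
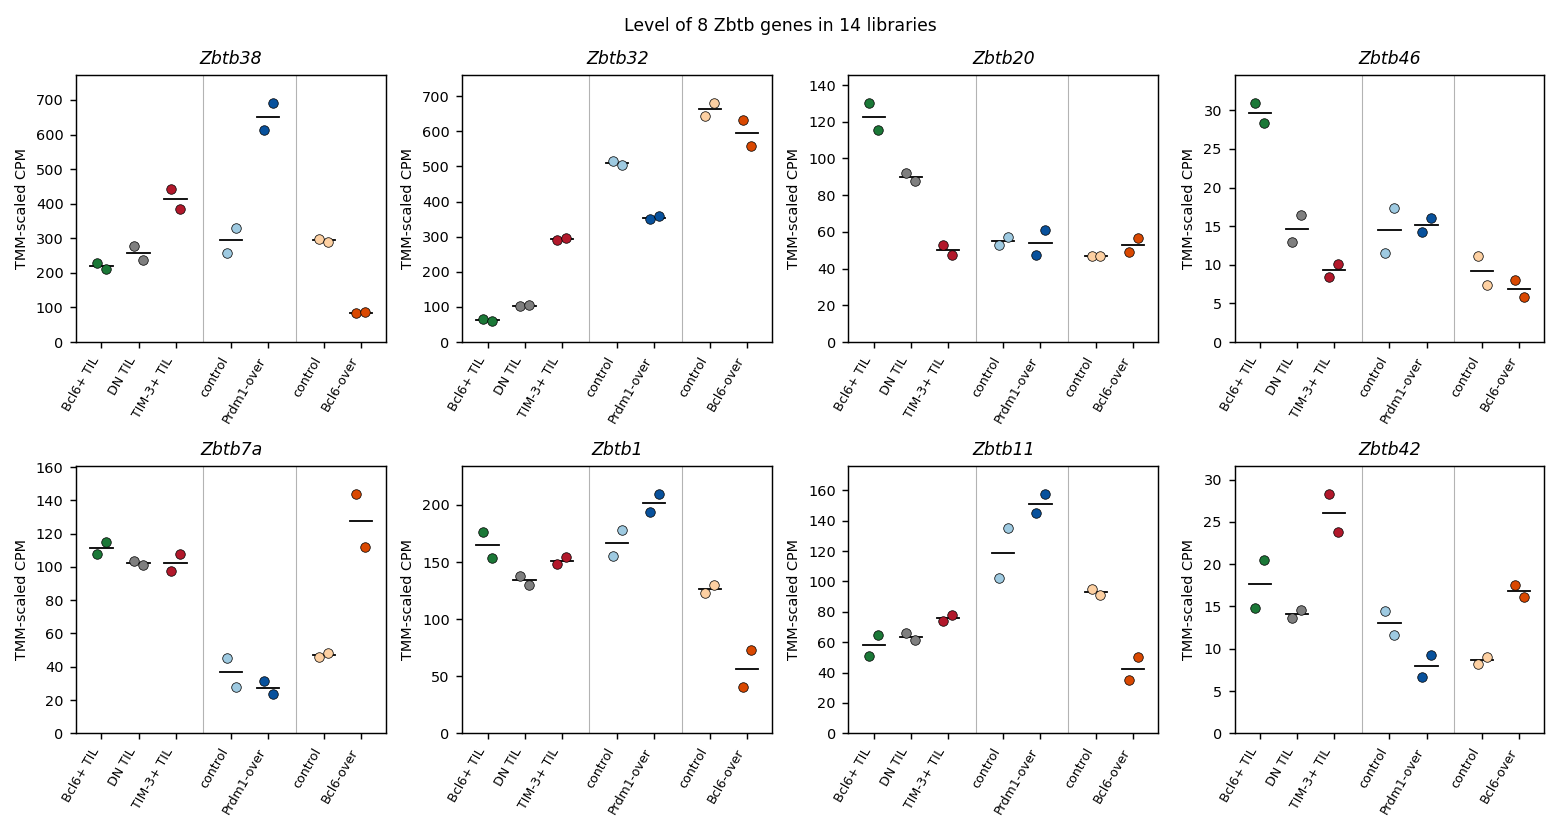
TMM-scaled CPM of 8 Zbtb genes in the 14 libraries (points) with group means (lines); vertical lines part the TIL, Prdm1 and Bcl6 experiments, which were scaled separately, and each axis starts at 0. Zbtb38 is highest in the Prdm1-overexpressing libraries, at 612 and 691 CPM, and lowest in the Bcl6-overexpressing ones, at 82.9 and 87.0 CPM.

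Zbtb38 (ENSMUSG00000040433, chromosome 9, 96682770 to 96752831, minus strand; CIBZ, a protein that binds methylated CpG) was the only member called in both overexpression experiments, in opposite directions. With Prdm1 overexpression it went from 259 and 329.9 CPM in control to 612 and 691 CPM, 2.21-fold higher (log2 fold change 1.15, SE 0.18, adjusted p = 0.036). With Bcl6 overexpression it went from 298 and 290.1 CPM in control to 82.9 and 87.0 CPM, 3.46-fold lower (-1.79, SE 0.17, adjusted p = 2.7e-08). Neither pair of groups overlapped. Among TILs it was 228 and 210.1 CPM in Bcl6+, 279 and 237 in DN and 442 and 384 in TIM-3+ cells. TIM-3+ cells held more than Bcl6+ cells (log2 fold change -0.91, SE 0.095, adjusted p = 3.8e-06, Bcl6+ against TIM-3+) and more than DN cells (0.68, SE 0.095, adjusted p = 1e-04). Bcl6+ and DN cells did not overlap but were not called apart (-0.23, SE 0.095, adjusted p = 0.13). The calls among TILs and under Bcl6 overexpression passed in every alternative. The call under Prdm1 overexpression was lost without library 1 of the controls (adjusted p = 0.24) or library 2 of the controls (adjusted p = 0.18), with no FPKM filter (adjusted p = 0.09) and with limma-trend (adjusted p = 0.071 and 0.088 with pseudocounts of 1 and 0.1).

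Other members that bind methylated CpG are Zbtb4 and Zbtb33. Zbtb4 (chromosome 11) was 21.2 and 26.6 CPM in Bcl6+, 22.6 and 28.5 in DN and 15.0 and 16.5 in TIM-3+ TILs, so that TIM-3+ libraries lay below the other 4. The difference passed against DN cells (log2 fold change -0.70, SE 0.23, adjusted p = 0.039) and not against Bcl6+ cells (0.60, SE 0.23, adjusted p = 0.056, Bcl6+ against TIM-3+). Scaled by library totals, the difference from Bcl6+ cells was called as well (adjusted p = 0.015). The first call was lost without any 1 of the 4 TIM-3+ and DN libraries (adjusted p = 0.065 and 0.28 without DN library 1 and 2, 0.15 and 0.079 without TIM-3+ library 1 and 2). It was also lost with no FPKM filter (adjusted p = 0.067) and with limma-trend (adjusted p = 0.11 and 0.12). Zbtb33, which encodes Kaiso, averaged 0.614, 0.698 and 0.593 FPKM in the TIL, Prdm1 and Bcl6 experiments and was not tested.

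Members tied to telomeres, centromeres and chromatin were not called in any comparison. They were Zbtb48 (TZAP, which binds telomeric repeats), Zbtb40 and Zbtb24, whose loss in people causes an immunodeficiency with unstable centromeric DNA. Over the TIL libraries their mean levels were 3.78 FPKM for Zbtb48, 2.89 for Zbtb40 and 6.56 for Zbtb24. Zbtb40 had the largest differences of these among TILs, at 25.6 and 46.7 CPM in Bcl6+, 31.4 and 45.0 in DN and 15.7 and 30.0 in TIM-3+ cells (log2 fold change 0.66, SE 0.32, adjusted p = 0.12, Bcl6+ against TIM-3+, and -0.74, SE 0.32, adjusted p = 0.1, TIM-3+ against DN). Scaled by library totals both differences were called (adjusted p = 0.047 and 0.045), as they were without library 2 of TIM-3+ (adjusted p = 0.012 and 0.012), and the first was called without library 1 of Bcl6+ (adjusted p = 0.028). Under Bcl6 overexpression Zbtb40 (0.59, SE 0.27, adjusted p = 0.078) and Zbtb48 (0.60, SE 0.28, adjusted p = 0.082) came near the threshold. Both were called higher there with no FPKM filter (adjusted p = 0.035 and 0.045), and Zbtb40 with the gene length trend removed (adjusted p = 0.028). Zbtb10, also a telomere-binding protein, lay under the threshold, at 0.257 FPKM over the TIL libraries.

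Under Prdm1 overexpression 1 of 28 members was called (3.57%), Zbtb38, against 1.36% of all 9947 genes tested, 1.16% higher and 0.201% lower. Those shares were 115 genes higher and 20 lower, against 354 and 232 with DESeq2, 171 and 121 with library totals and 288 and 165 with the length trend removed. A replicate block raised the count over all genes further than these, as given in the last paragraph, and called Zbtb32 as well. Zbtb38 differed by at least 2-fold, as 1.21% of all genes did. The groups did not overlap for 17 of 28 members and 51.1% of all genes, and the median log2 fold change of the members was 0.20 against 0.02 over all genes. At an unadjusted p under 0.05, 6 of 28 members passed edgeR's test, beside 19.2% of all genes. Besides Zbtb38 and Zbtb32 they were Zbtb44, Zbtb4, Zbtb6 and Zbtb8a, and none of these 4 passed after adjustment. Zbtb44 was 12.2 and 14.1 CPM in control and 23.4 and 22.1 CPM in overexpressing cells (log2 fold change 0.79, SE 0.27, adjusted p = 0.18). Zbtb6 was 3.34 and 4.62 CPM against 10.3 and 7.39 (1.15, SE 0.43, adjusted p = 0.21).

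Under Bcl6 overexpression 10 of 28 members were called (35.7%), against 48.8% of all 9669 genes tested. Of the 10, 3 were higher and 7 lower, against 25.4% of all genes higher and 23.4% lower. With the gene length trend removed, 5 were higher and 7 lower, as Zbtb40 and Zbtb45 were then called higher (adjusted p = 0.028 and 0.049). The median log2 fold change was -0.16 for the members and 0.00 for all genes, and 7 of the called members differed by at least 2-fold, against 24.1% of all genes. The groups did not overlap for 21 of 28 members and 75.7% of all genes. Zbtb7a, Zbtb8os and Zbtb42 rose, and Zbtb38, Zbtb1, Zbtb11, Zbtb8a, Zbtb3, Zbtb14 and Zbtb43 fell. Zbtb7a, Zbtb38 and Zbtb1 are given above.

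Zbtb11 (ENSMUSG00000022601, chromosome 16, 55973883 to 56008913, plus strand) fell from 95.0 and 90.8 CPM in Bcl6 control to 35.1 and 50.0 CPM in Bcl6-overexpressing cells (log2 fold change -1.13, SE 0.2, adjusted p = 0.00013). It was also lower in Bcl6+ than in TIM-3+ TILs, at 51.2 and 64.9 against 74.1 and 78.1 CPM with DN cells at 65.9 and 61.2 (-0.39, SE 0.15, adjusted p = 0.048). The TIL call was lost without library 1 of Bcl6+, library 1 or 2 of DN, or library 1 or 2 of TIM-3+ (adjusted p = 0.28, 0.078, 0.076, 0.084 and 0.16 in that order). It was lost as well with library totals (adjusted p = 0.27), a minimum of 3 FPKM (adjusted p = 0.06) or only the 2 populations compared in the fit (adjusted p = 0.073). Zbtb11 shares 238 of its 7440 exon bases with Pcnp and 489 with Zbtb11os1, both on the opposite strand, and the labels do not say whether strand was used in counting.

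Zbtb8os and Zbtb8a overlap by 264 exon bases on opposite strands of chromosome 4, and they changed in opposite directions. Zbtb8os was 24.2 and 23.8 CPM in Bcl6 control and 40.5 and 50.9 CPM in Bcl6-overexpressing cells (log2 fold change 0.93, SE 0.22, adjusted p = 0.0018). Zbtb8a was 13.4 and 7.94 CPM in control and 4.79 and 3.07 CPM in overexpressing cells (-1.44, SE 0.39, adjusted p = 0.0047). The call for Zbtb8a was lost without library 1 of the controls (adjusted p = 0.13).

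Zbtb42, a close relative of the repressor Zbtb18, was 8.16 and 9.07 CPM in Bcl6 control and 17.5 and 16.1 CPM in Bcl6-overexpressing cells (log2 fold change 0.96, SE 0.3, adjusted p = 0.011). The call was lost without library 1 of the controls (adjusted p = 0.088). Among TILs it was highest in TIM-3+ cells, at 28.2 and 23.8 CPM, against 13.7 and 14.5 in DN and 14.8 and 20.5 in Bcl6+ cells, and passed against DN cells (0.88, SE 0.25, adjusted p = 0.016). That call was lost without library 1 or 2 of DN (adjusted p = 0.12 and 0.085) or library 1 of TIM-3+ (adjusted p = 0.097).

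Zbtb43 and Zbtb21 were higher in Bcl6+ than in TIM-3+ TILs, as Zbtb20 was, and neither was called between Bcl6+ and DN cells (log2 fold change 0.29, SE 0.22, adjusted p = 0.47 for Zbtb43 and 0.05, SE 0.14, adjusted p = 0.89 for Zbtb21). Zbtb43 was 45.3 and 28.7 CPM in Bcl6+, 30.0 and 30.6 in DN and 20.2 and 22.1 in TIM-3+ cells (log2 fold change 0.81, SE 0.23, adjusted p = 0.012, Bcl6+ against TIM-3+). That call was lost without library 1 of Bcl6+ (adjusted p = 0.16) or library 1 of TIM-3+ (adjusted p = 0.058). Under Bcl6 overexpression Zbtb43 went the other way, from 31.2 and 30.1 CPM in control to 19.4 and 18.6 CPM (-0.69, SE 0.23, adjusted p = 0.019), a call lost without library 1 or 2 of the controls (adjusted p = 0.11 and 0.08). Zbtb21 was 67.1 and 60.3 CPM in Bcl6+, 59.3 and 64.1 in DN and 43.7 and 38.4 in TIM-3+ cells. TIM-3+ libraries lay below the other 4 (log2 fold change 0.63, SE 0.15, adjusted p = 0.0035, Bcl6+ against TIM-3+, and -0.59, SE 0.15, adjusted p = 0.008, TIM-3+ against DN). The second call was lost without library 2 of DN (adjusted p = 0.08) or library 2 of TIM-3+ (adjusted p = 0.066).

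Zbtb14 and Zbtb3 were called under Bcl6 overexpression and in no other comparison. Zbtb14 was 17.8 and 18.0 CPM in control and 5.54 and 12.2 CPM in overexpressing cells (log2 fold change -1.01, SE 0.34, adjusted p = 0.018), and the call was lost without library 1 of the overexpressing cells (adjusted p = 0.16). Zbtb3 was 3.39 and 3.90 CPM in control and 0.657 and 1.67 CPM in overexpressing cells (-1.64, SE 0.52, adjusted p = 0.012). Its call was lost with no FPKM filter (adjusted p = 0.053) and without library 1 of the overexpressing cells (adjusted p = 0.1), and without library 1 or 2 of the controls the gene fell under the threshold.

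The remaining members tested were Zbtb2, Zbtb5, Zbtb22, Zbtb41, Zbtb44, Zbtb45 and Zbtb49, and they were called in none of the 5 comparisons. Zbtb2 and Zbtb5, which repress the cell cycle inhibitor p21, averaged 4.27 and 2.75 FPKM over the TIL libraries. Zbtb45 averaged 5.60, Zbtb22 3.06, Zbtb41 2.89, Zbtb44 2.66 and Zbtb49 1.67 FPKM. A p that misses the threshold does not show that their levels were equal.

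Members under the threshold were tested only in the fit with no FPKM filter. There the smallest adjusted p was 0.1 over the TIL comparisons (Zbtb16, Bcl6+ against TIM-3+) and 0.57 under Prdm1 overexpression (Zbtb16 and Zbtb34). Under Bcl6 overexpression that fit called 3 of them. Zbtb16 was 0.787 and 2.82 CPM in control and 0.0469 and 0 CPM in Bcl6-overexpressing cells (adjusted p = 0.002), and Zbtb8b was 1.62 and 0.423 against 0 and 0 CPM (adjusted p = 0.0046). Both rest on few counts, and no fold change is given. Zbtb34, which lies 18962 bases from Zbtb43 on chromosome 2, was 1.97 and 1.50 CPM in control and 3.61 and 5.41 CPM in overexpressing cells (log2 fold change 1.48, SE 0.53, adjusted p = 0.028).

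The TIL populations and the overexpression experiments share no library. Of 28 members tested in both, 3 were called between Bcl6+ and TIM-3+ TILs and under Bcl6 overexpression. The first comparison called 7 members, beside 38.6% of all genes, and the second 10, beside 48.8%. Zbtb46, 1 of the 7, was under the threshold in the Bcl6 experiment and is not among the 28. The share of all genes called in both comparisons was not computed. Zbtb38 was lower with Bcl6 in both (-0.91 and -1.79), as was Zbtb11 (-0.39 and -1.13), while Zbtb43 was higher in Bcl6+ TILs and lower under overexpression (0.81 and -0.69). Zbtb32, Zbtb20 and Zbtb21, called between Bcl6+ and TIM-3+ TILs, had log2 fold changes under Bcl6 overexpression of -0.15 (SE 0.17), 0.17 (SE 0.2) and -0.24 (SE 0.19), none called. Zbtb38 was higher in TIM-3+ than in DN TILs and under Prdm1 overexpression (0.68 and 1.15). Zbtb42 was called higher in TIM-3+ than in DN TILs and under Bcl6 overexpression (0.88 and 0.96). Between Bcl6+ and TIM-3+ TILs it had the opposite sign to overexpression and was not called (-0.56, SE 0.25, adjusted p = 0.092). Limma-trend called it lower in Bcl6+ cells there (adjusted p = 0.035 and 0.04 with pseudocounts of 1 and 0.1). Zbtb7a, Zbtb1, Zbtb8os, Zbtb8a, Zbtb14 and Zbtb3 were called under Bcl6 overexpression and in no TIL comparison, though whether the changes differed was not tested. Zbtb7a and Zbtb1 passed among TILs with some alternatives, as given above. Zbtb8os, higher under overexpression, was lower in Bcl6+ than in TIM-3+ TILs without a call (-0.37, SE 0.15, adjusted p = 0.065). Limma-trend did call that difference (adjusted p = 0.032 with either pseudocount).

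**Figure D4:**
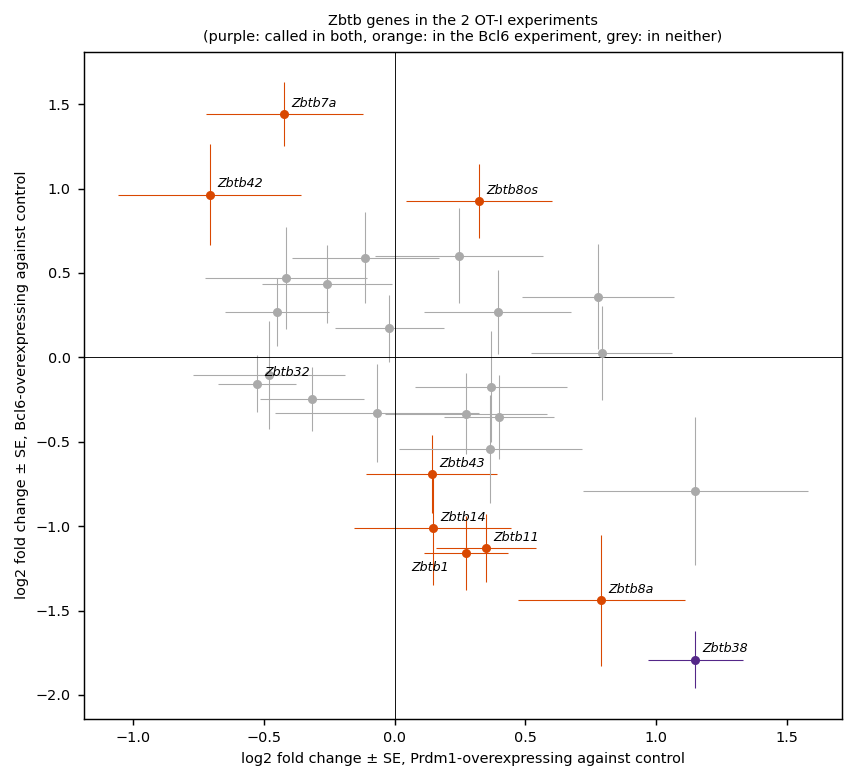
Log2 fold change with SE of the 27 Zbtb genes tested in both OT-I experiments, Prdm1-overexpressing against control on the x axis and Bcl6-overexpressing against control on the y axis. Zbtb38, called in both, lies at 1.15 and -1.79, and Zbtb7a at -0.42 and 1.44.

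BTB zinc finger genes with other symbols were read beside the Zbtb genes from a list of 8: Bcl6, Bcl6b, Patz1, Hic1, Hic2, Mynn, Gzf1 and Zfp131. Between Bcl6+ and TIM-3+ TILs 3 of 5 tested were called, 2 higher and 1 lower, beside 38.6% of all genes. Between Bcl6+ and DN cells 2 of 5 were called, both higher, beside 14.2% of all genes, and between TIM-3+ and DN cells 2 of 5, both lower, beside 28.2%. Bcl6 is 1 of the genes counted in each. Besides Bcl6, which names the Bcl6+ population, the gene called in all 3 was Gzf1, a zinc finger repressor responsive to GDNF. Gzf1 was 67.9 and 63.4 CPM in Bcl6+, 26.9 and 24.3 in DN and 17.3 and 10.1 in TIM-3+ cells, with no overlap (log2 fold change 2.26, SE 0.23, adjusted p = 3.7e-06, Bcl6+ against TIM-3+). Its difference between TIM-3+ and DN cells (-0.90, SE 0.23, adjusted p = 0.0096) was lost without library 1 of DN (adjusted p = 0.08) or library 2 of TIM-3+ (adjusted p = 0.08). Mynn was the gene called lower in Bcl6+ than in TIM-3+ cells (log2 fold change -0.38, SE 0.14, adjusted p = 0.046), and its call was lost without library 2 of Bcl6+ (adjusted p = 0.24), library 1 or 2 of DN (0.076 and 0.075) or library 2 of TIM-3+ (0.24). It was lost as well with library totals (adjusted p = 0.27), a minimum of 3 FPKM (0.058) and only the 2 populations compared in the fit (0.071). Under Prdm1 overexpression edgeR called 0 of 5, with 1 at an unadjusted p under 0.05, and DESeq2 called 1. The gene at an unadjusted p under 0.05 was Bcl6 itself, higher in the overexpressing cells (log2 fold change 1.28, SE 0.29, adjusted p = 0.089). Under Bcl6 overexpression 2 of 6 were called, Bcl6 higher and Mynn lower (-0.87, SE 0.21, adjusted p = 0.0016), beside 48.8% of all genes.

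Genes for partners of BTB zinc finger proteins were read from a list of 15 corepressors, deacetylases and binding partners. Under Bcl6 overexpression 8 of 15 were called, 7 higher and 1 lower, beside 48.8% of all genes, with a list median of 0.37 against 0.00 over all genes. Nacc1, itself a BTB protein, was 19.6 and 19.4 CPM in control and 68.7 and 66.8 CPM in overexpressing cells (log2 fold change 1.80, SE 0.21, adjusted p = 6.1e-07). Hdac7, Sin3b and Hdac5 were higher by 1.49, 1.21 and 1.20. Those 4 calls passed in every alternative, while those of Hdac2 (0.68), Ctbp1 (0.55), Myc (0.41) and Hdac1 (-0.56) were each lost without library 1 of the controls (adjusted p = 0.24, 0.22, 0.32 and 0.12) and without library 2 of the controls (adjusted p = 0.063, 0.067, 0.21 and 0.064). The call for Hdac2 was also lost without library 2 of the overexpressing cells (adjusted p = 0.18).

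Among TILs, the test of Bcl6+ against TIM-3+ cells called 5 of 14 partner genes, 4 higher and 1 lower, beside 38.6% of all genes. Myc was 266 and 262 CPM in Bcl6+, 255 and 274 in DN and 169 and 166 in TIM-3+ cells (log2 fold change 0.66, SE 0.077, adjusted p = 1.2e-05, Bcl6+ against TIM-3+), and Hdac4 was 151 and 147 in Bcl6+ against 112 and 86.2 CPM in TIM-3+ cells (0.59, SE 0.12, adjusted p = 0.0015). The calls of Bcor and Sin3a were lost without library 1 of TIM-3+ (adjusted p = 0.071 and 0.34). That of Bcor was also lost without library 1 of Bcl6+ (adjusted p = 0.094), that of Sin3a without library 2 of Bcl6+ (adjusted p = 0.27) or library 1 or 2 of DN (adjusted p = 0.068 and 0.072), and that of Hdac1 with library totals (adjusted p = 0.25). Those of Bcor and Sin3a were lost with limma-trend as well (adjusted p = 0.06 and 0.11 with a pseudocount of 1), and that of Sin3a with the length trend removed, no FPKM filter or only the 2 populations in the fit (adjusted p = 0.054, 0.12 and 0.072). Between Bcl6+ and DN cells 1 of 14 was called beside 14.2% of all genes, the Bcl6 corepressor Bcor (0.71, SE 0.13, adjusted p = 0.0014). Between TIM-3+ and DN cells 2 of 14 were called beside 28.2% of all genes, Hdac1 higher (0.37) and Myc lower (-0.66). Under Prdm1 overexpression edgeR called 0 of 15, with 3 at an unadjusted p under 0.05, and DESeq2 called 1.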

How the data were processed

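RNA-seq of CD8+ T cells from E.G7 tumors was analysed from 14 libraries in 7 groups and 3 experiments. Total RNA was taken with Trizol and BGI Genomics built the libraries, per the labels' protocols. The deposited tables hold raw counts per gene and the authors' FPKM values, per the file headers. The build is mm10, per the submitters' processing notes. For TILs these notes list featureCounts, Subread, Bowtie2, DESeq2 and edgeR, and for OT-I cells RSEM, DESeq2, HISAT2 and featureCounts; the sources used here give no versions, roles or strand settings.

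Counts were tested with edgeR 4.0.16 (R 4.3.3), quasi-likelihood, two-sided, with TMM scaling, over all genes whose FPKM averaged 1 or more in the libraries of a fit. The threshold was 0.05 after Benjamini-Hochberg adjustment. All 6 TIL libraries entered a single fit, and the OT-I experiments were fitted separately. SE was derived from the fold change and its F statistic. The biological coefficient of variation was 0.149 among TILs, 0.227 for the Prdm1 experiment and 0.164 for the Bcl6 experiment, and 2 libraries a group limit the precision. The scripts were tested on simulated data. Alternatives were DESeq2 1.42.0, library totals, removal of the gene length trend, no FPKM filter, a minimum of 3 FPKM, limma-trend (limma 3.58.1) on log2(FPKM + 1) and log2(FPKM + 0.1), a replicate block, leaving out each library, and fits of only the 2 populations compared.

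Every Zbtb symbol is named, grouped by known role, and called members are given with each library's value. The members, the gene lists and the motifs were chosen with earlier results of these data known. Gene positions and overlaps are from GENCODE M21 (mm10) and promoters from RefSeq (GRCm38.p6). From the list of partner genes, 1 gene is not reported here.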

Additional observations from a re-analysis of the deposited data

How the results depend on the processing

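Directions held in every alternative in which a called Zbtb gene was tested: 316 such values stayed past the threshold, 45 fell short of it and 0 reversed. Counts of called members in this section are given only for their stability, without the share of all genes called in each fit. They are not read as results about the Zbtb genes. Those that moved by over 1.5 times were these. Between Bcl6+ and TIM-3+ TILs, 7 became 11 with library totals and 4 at a minimum of 3 FPKM, where 17 members were tested. Between Bcl6+ and DN TILs, 3 became 1 with limma-trend at a pseudocount of 0.1. Under Prdm1 overexpression, 1 became 0 with no FPKM filter, 0 with limma-trend at either pseudocount and 2 with the replicate block. Leaving out 1 library gave 5 to 9 members between Bcl6+ and TIM-3+ TILs, 1 to 4 between Bcl6+ and DN, 3 to 7 between TIM-3+ and DN, 0 to 1 under Prdm1 and 6 to 14 under Bcl6 overexpression; a lone library is then assumed to vary like the other groups.

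Over all genes, the count under Prdm1 overexpression was the least stable: 135 against 586 with DESeq2, 292 with library totals, 453 with the length trend removed, 44 with no filter and 3 and 7 without either control library, and 643 without Prdm1-overexpressing library 1. Between Bcl6+ and DN TILs 1383 became 735 and 766 without either DN library, and between TIM-3+ and DN TILs 2745 became 1696 and 1734. The cause was not tested.

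Replicate numbers are not stated to pair the samples. Deviations of same-numbered libraries correlated at 0.02, 0.00 and 0.03 among TILs, 0.32 for Prdm1 and -0.06 for Bcl6 overexpression. The replicate block gave 7, 3, 7, 2 and 10 called members in the comparisons Bcl6+ against TIM-3+, Bcl6+ against DN, TIM-3+ against DN, Prdm1 and Bcl6 overexpression, 8 for any difference among TILs, and 1659 genes in all under Prdm1 overexpression. With the block Zbtb32 was called lower in Prdm1-overexpressing than in control cells (adjusted p = 0.0052), Zbtb40 was called lower in TIM-3+ than in Bcl6+ and DN cells (adjusted p = 0.016 and 0.0084), and Zbtb11 and Mynn were no longer called between Bcl6+ and TIM-3+ TILs (adjusted p = 0.052 and 0.058), nor Myc under Bcl6 overexpression (adjusted p = 0.074).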
